A study of Mus musculus with 8 samples.

Results

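The axonemal and motile-cilium genes described here are 36 protein-coding genes of the mouse whose symbols start with Cfap, Dnah, Dnai, Dnaic, Dnaaf, Rsph, Drc, Tekt or Saxo followed by a digit, and whose normalized read count was at least 10 in at least 3 of 8 libraries. They are 36 of the 66 coding genes with these prefixes in the files. The level of each gene chose the members, so the presence of these transcripts is a description and not a finding. The cells were fibro/adipogenic progenitors (FAPs), mesenchymal cells of skeletal muscle that can form fibroblasts and adipocytes, purified from the tibialis anterior of mice of mixed background 3 days after glycerol, which damages muscle fibres, was injected. FAP-ctrl, with 5 libraries, came from wild type muscle. FAP-no cilia, with 3 libraries, came from cells that had lost their cilia through a floxed allele of Ift88, an intraflagellar transport gene. The injury was shared by both groups. The Cre line, the age and number of the mice and any pooling are not stated in the sources used here, and p-values then measure only the spread between these libraries.

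A motile cilium or sperm tail is built on an axoneme, a ring of doublet microtubules around a central pair. Outer and inner dynein arms on the doublets slide them against each other. Radial spokes, the central apparatus and the nexin-dynein regulatory complex control that sliding, tektins and other filaments line the doublets, and assembly factors fold the arms in the cytoplasm before transport. The primary cilium, the single signalling cilium of FAPs and most other cells, has doublets but is known for lacking dynein arms and the central pair. Foxj1 and the RFX factors are the known transcriptional regulators of the motile programme, and RFX factors bind a palindrome called the X-box.

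The libraries held 15.3 to 43.9 M reads in genes, so 1 read was worth 0.610 normalized reads in the deepest (FAP-ctrl 1) and 1.79 in the shallowest (FAP-no cilia 2). Ift88 was at 477, 457, 540.4, 566 and 594 in FAP-ctrl against 211, 195 and 322 in FAP-no cilia, with groups that did not overlap (527 ± 58.4, SD, n = 5, against 243 ± 69.3, SD, n = 3). Its log2 difference, FAP-no cilia minus FAP-ctrl throughout, was -1.14 ± 0.17 (SE; limma-trend adjusted p = 0.0895, DESeq2 adjusted p = 8.11e-06). Leaving out 1 library at a time, limma-trend called Ift88 only without FAP-no cilia 3 (-1.37, adjusted p = 0.0214), with adjusted p-values of 0.11 to 0.317 without any other library. The 5 male libraries gave -0.98 (limma-trend adjusted p = 0.394). The reads are per gene and do not tell the floxed exons from the rest, nor cells that kept a cilium. By Xist and Y-linked reads, FAP-no cilia held 3 male libraries and 0 female ones, and FAP-ctrl 2 male and 3 female. Sex and group are therefore partly confounded, and values from the 5 male libraries alone are given with the results. All 8 FAP markers were found, with a summed level of 692303 to 931752 in FAP-ctrl against 795082 to 920043 in FAP-no cilia. Col3a1 alone held 345528 to 554814 of it in FAP-ctrl, so the sum says little of the less abundant markers. Of the 8, DESeq2 called 1, Thy1 (background 1.06%), at 5897 to 7575 in FAP-ctrl against 8608 to 9590 in FAP-no cilia.

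The subfamilies contributed unevenly. Members were 16 of 29 Cfap genes, which encode cilia and flagella associated proteins of many positions in the axoneme, and 8 of 13 Dnah genes, the axonemal dynein heavy chains. They were also 5 of 8 Rsph genes (radial spoke heads and stalks) and 3 of 4 Dnaaf genes (dynein arm assembly factors). The intermediate chain Dnaic2, Drc3 of the regulatory complex, the tektin Tekt2 and the microtubule-binding Saxo2 were the single members of their subfamilies. In all, 54.5% of the prefix genes passed, against 65.5% of 20230 coding genes in the files. Of the 36 members, 24 were at 10 or more in all 8 libraries, and 2 reached it in fewer than 3 FAP-ctrl libraries. The third-highest value of the members just inside the threshold was 10.5 for Dnah10, 10.9 for Cfap126 and 11.3 for Rsph3b. Just outside stood Cfap70 at 9.11, Rsph4a at 7.92, and Dnah12 and Cfap46 at 6.94 each. Cfap70 was at 11.6, 3.21, 14.0, 5.21 and 9.11 in FAP-ctrl against 1.26, 3.58 and 3.50 in FAP-no cilia, and Rsph4a at 7.92, 9.64, 13.0, 6.94 and 2.73 against 3.78, 7.17 and 7.01. Dnah12 was at 7.31, 2.14, 18.6, 6.94 and 3.65 against 5.05, 1.79 and 2.63, and Cfap46 at 4.27, 1.07, 5.59, 6.94 and 1.82 against 0, 7.17 and 7.88. These genes near the threshold rest on few reads, and 4 prefix genes had no read in any library.

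Per kilobase of merged exons, most members were far below a typical expressed gene. The median over members was 7.05 normalized reads per kb, against 114.6 for all coding genes past the same filter, and 20 of 36 members were under 10. Only Cfap300, Cfap36, Cfap20, Cfap298 and Cfap97 lay above that coding median, at 335, 330, 209.5, 145.7 and 115.3 per kb. These include 2 dynein assembly factors (Cfap300 and Cfap298), the doublet inner-junction protein Cfap20, and Cfap36, which binds the ciliary small GTPase Arl3. The 6 members with the highest values held 69.3% of the members' summed normalized reads.

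By the median of their members, the subfamilies were apart at the ends and not in the middle. The median member of Dnaaf stood at 75.6 per kb, 66.0% of the coding median, with Dnaaf2 at 77.2, Dnaaf5 at 75.6 and Dnaaf3 far lower at 6.75. Tekt2 was at 25.9 per kb. The middle held Rsph at 12.3, Drc3 at 10.5, Saxo2 at 10.1 and Dnaic2 at 8.23 per kb. Within these, the library ranges overlapped: in FAP-ctrl, 8.67 to 12.1 for the Rsph median, 9.25 to 13.1 for Drc3, 9.81 to 14.1 for Saxo2 and 6.46 to 15.5 for Dnaic2. The Cfap median was 6.60, over members from 1.39 (Cfap61) to 335 per kb. Among members, the heavy chains were lowest, with a median of 1.74 per kb, 1.52% of the coding median, and a range from 0.50 (Dnah10) to 10.2 (Dnah7b). Their exons span 13 kb or more each, so that even low levels per kb gave 75 reads over the 8 libraries for Dnah10 and 1785 for Dnah7b. The rule counted reads without regard to length, so long genes could pass at low levels per kb. Dnah10 passed at 0.50 per kb, while Rsph4a, with 3.65 kb of exons, did not pass at 1.99 per kb. The low place of the heavy chains among members is therefore partly set by the rule.

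**Figure D1:**
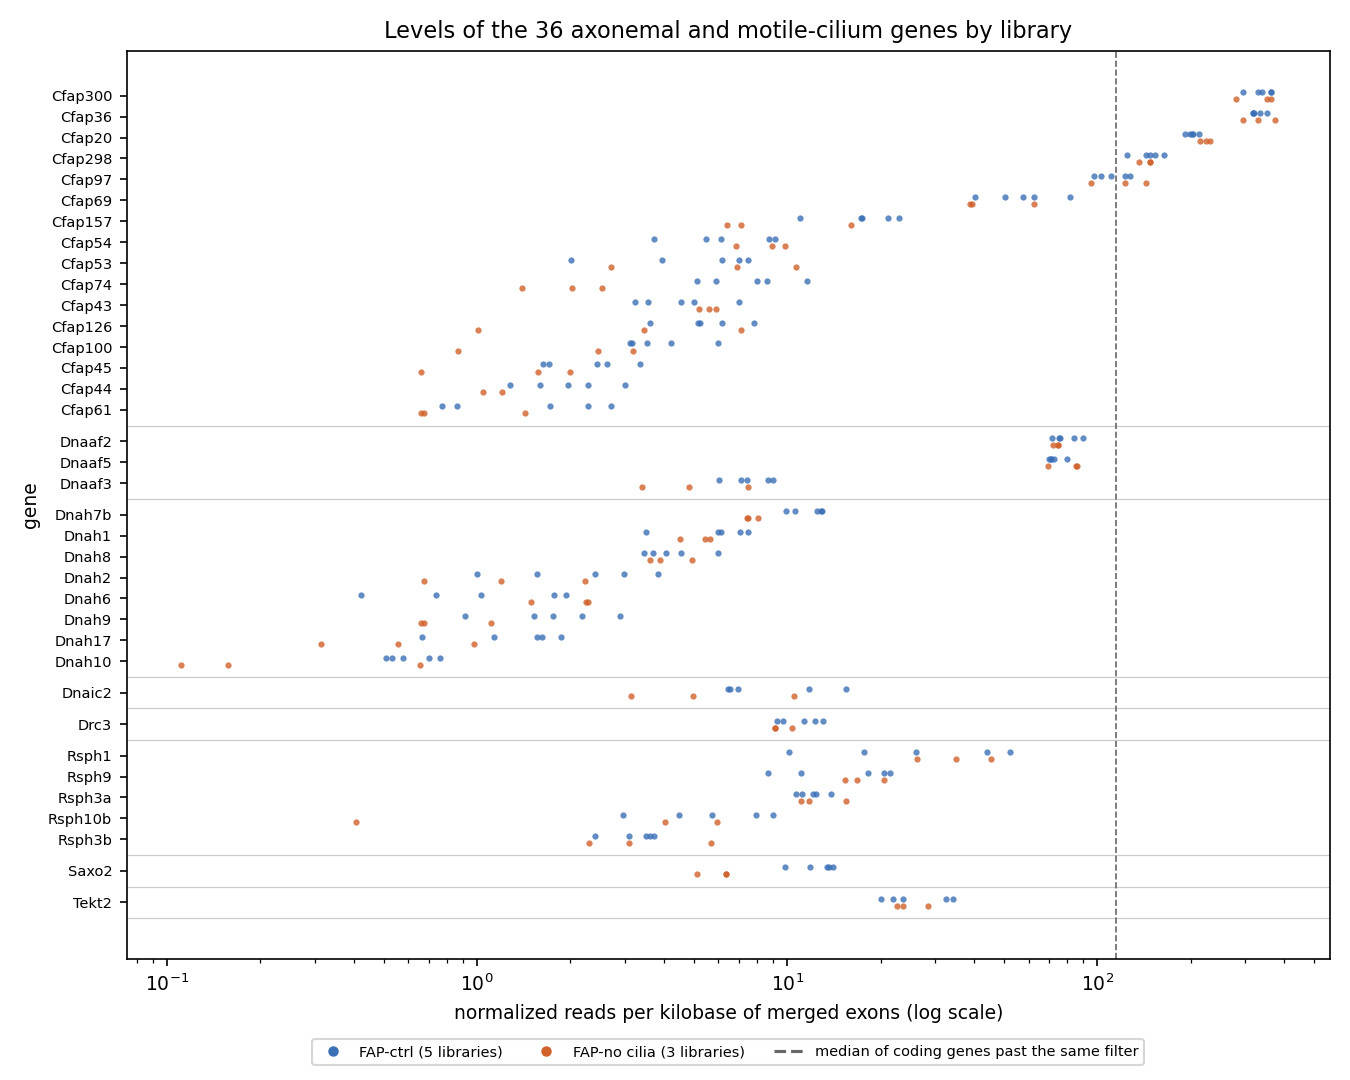
Normalized reads per kb of merged exons (log axis) of the 36 genes in each of the 5 FAP-ctrl and 3 FAP-no cilia libraries, 1 point per library, grouped by subfamily, with the median of coding genes past the same filter as a dashed line. Only 5 Cfap genes have a mean above that line, and the Dnah genes are the lowest subfamily by the median of its members. The value of 0 of Cfap44 in FAP-no cilia 2 cannot be drawn on this axis.

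Promoters of the members were searched for the RFX motif because these genes are known as targets of the motile programme. The windows ran from 250 bases before to 50 after each RefSeq start (GRCm38.p6), and 29 of 36 members and 25 of 30 prefix genes below the threshold had one. The full X-box, written as GTTNCC, then 3 bases of any kind, then GNAAC, and read on both strands, was present in 5 of 29 members (17.2%), 1 of 25 prefix genes below the threshold (4%) and 253 of 27025 genes in the table (0.936%). The looser form, GTNNCC, 3 bases and GNNAC, which includes every full match, was in 11 of 29 (37.9%), 5 of 25 (20%) and 5.26% of all genes. The forkhead motif TGTTTAC was in 3 of 29 (10.3%), 1 of 25 and 4.05%. These matches are descriptions of the windows and not of binding. The full X-box in 4 members is shown in capitals, 5′ to 3′ on the gene's strand, each read from the table with the bases beside it up to the annotated start.
Cfap298 (chr16:90935004-90935057, minus strand): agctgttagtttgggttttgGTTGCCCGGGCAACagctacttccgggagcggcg
Cfap44 (chr16:44394752-44394798, plus strand): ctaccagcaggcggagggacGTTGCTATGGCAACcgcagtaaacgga
Cfap45 (chr1:172521091-172521129, plus strand): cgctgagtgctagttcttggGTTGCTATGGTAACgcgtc
Dnaaf2 (chr12:69198430-69198466, minus strand): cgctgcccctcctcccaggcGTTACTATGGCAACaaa
The fifth full match, in Cfap61, spans its start. The genes with a full X-box ranged from 1.39 per kb (Cfap61) to 145.7 per kb (Cfap298), and their log2 differences from -1.86 (Cfap44) to -0.02 (Cfap298).

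**Figure D2:**
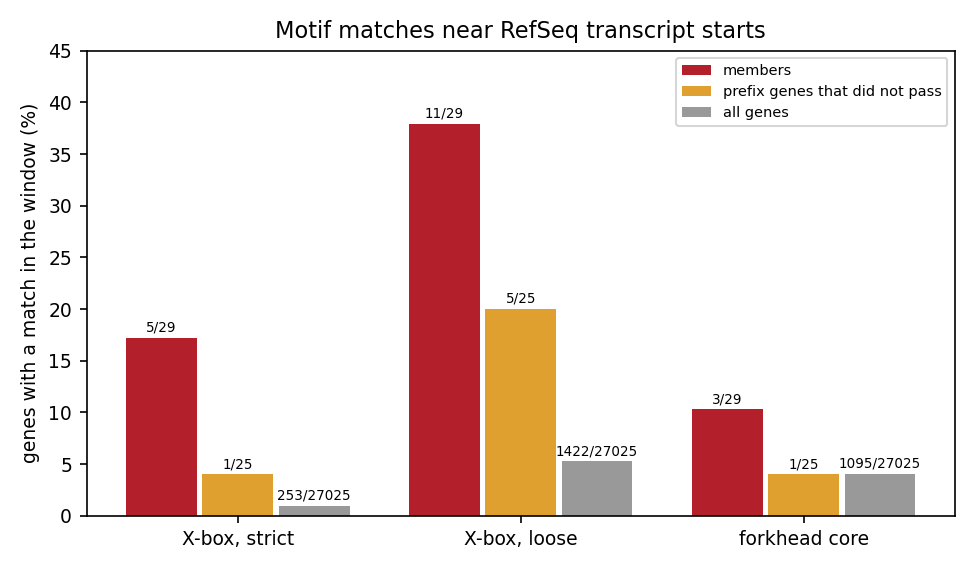
Percent of genes whose promoter window holds each motif, for the 29 members, the 25 prefix genes below the threshold and all 27025 genes with a window. The bars for the full X-box stand at 17.2%, 4% and 0.936%.

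The comparison of FAP-no cilia with FAP-ctrl asked whether these transcripts differ once the cilium is lost. In limma-trend 0 of 36 members passed an adjusted p of 0.05, where 0.00677% of the 14768 genes tested did, and edgeR also called 0, against 0.00677% of all genes. DESeq2 called 3 members, Cfap74, Saxo2 and Dnah7b, all lower in FAP-no cilia, against 0.614% of all genes called lower and 1.06% called in either direction. Before adjustment, 8 members were lower in limma-trend at a p under 0.05 (background 6.09%) and 0 higher (background 4.68%), and edgeR had 6 lower (background 5.76%). The groups did not overlap for 4 members lower in FAP-no cilia, the 3 above and Cfap44 (background 3.69%), and for 1 higher, Cfap20 (background 3.62%). The log2 difference was below 0 for 24 members and above 0 for 12, with a median of -0.19, where the median over all genes was 0.01 and 48.5% lay below 0.

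These counts describe genes that passed a level filter which a gene could meet through either group alone, and they carry no test of the list. Among the 13 members with a mean of at least 50 the median difference was -0.03, and among the 23 under 50 it was -0.72. Among the 24 at 10 or more in all 8 libraries it was -0.06. With no filter, 62 prefix genes had a read, and 45 were lower and 17 higher, where 14159 of all 24681 genes with a read were lower. The median was -0.21 against -0.06 over all genes with a read. The summed value of the members was 5086 to 5762 in FAP-ctrl against 4776 to 5470 in FAP-no cilia, so the ranges of the sums overlapped. In bulk libraries, fewer cells of a type and less RNA per cell cannot be told apart.

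**Figure D3:**
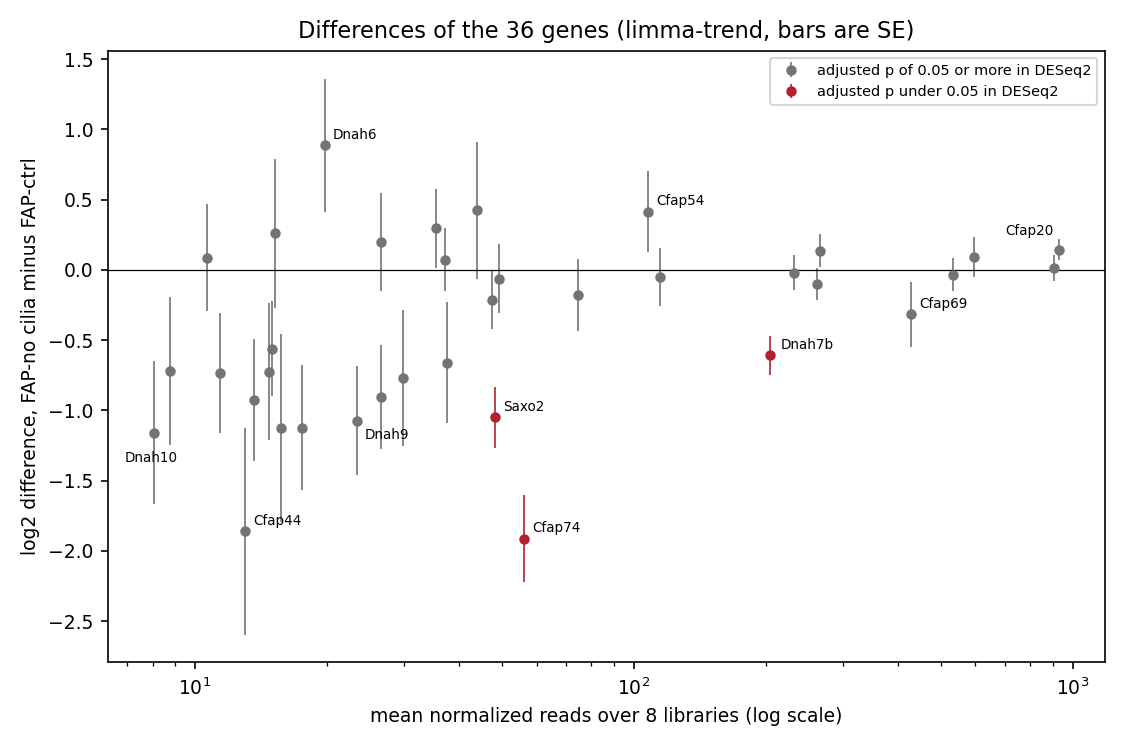
Log2 difference, FAP-no cilia minus FAP-ctrl, from limma-trend (bars, SE) against the mean normalized read count over 8 libraries (log axis), 1 point per member, with the 3 genes called by DESeq2 in red. Points on the right, above a mean of 200, lie near 0 except Dnah7b and Cfap69, and the points on the left have the widest bars.

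Cfap74, with the largest limma-trend difference of any member over all 8 libraries, is a protein of the central apparatus (ENSMUSG00000078490, chromosome 4, 155409190 to 155466823, plus strand, GRCm38). Its normalized reads were 58.5, 79.3, 115.5, 85.9 and 51.0 in FAP-ctrl against 13.9, 25.1 and 20.1 in FAP-no cilia. Each FAP-no cilia library was under the lowest FAP-ctrl library by a wide margin. The means were 78.1 ± 25.4 (SD, n = 5) against 19.7 ± 5.62 (SD, n = 3), a log2 difference of -1.91 ± 0.31 (SE; limma-trend adjusted p = 0.104, DESeq2 adjusted p = 6.23e-05, edgeR adjusted p = 0.140). The male libraries alone gave -1.78, and DESeq2 with sex as a covariate still called it (adjusted p = 0.0421, where 0.122% of all genes were called lower and 0.193% in either direction). DESeq2 also called Cfap74 without each of the 8 libraries in turn, and its adjusted p ran from 1.44e-05 to 0.722 over all alternatives. Cfap74 shares 453 bases of exon, 4.55% of its own, with the antisense gene 5830444B04Rik, whose mean was 3.22, and the strand setting of the counting is not given.

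The 2 other central apparatus members did not follow it. Cfap54, which is known to sit on the same central-pair projection as Cfap74, was at 134, 54.7, 89.4, 128 and 80.2 in FAP-ctrl against 144, 100.4 and 130.5 in FAP-no cilia, with overlapping groups and a log2 difference of 0.41 ± 0.29 (SE). Cfap69, a central-pair protein of sperm tails, was at 462 ± 123 (SD, n = 5) against 370 ± 107 (SD, n = 3), with overlapping groups and a difference of -0.32 ± 0.23 (SE).

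The dynein heavy chains were lower in FAP-no cilia for 7 of 8 genes by the sign of the difference, with a median log2 difference of -0.69, although Dnah8 turned to 0.004 in the male libraries and to 0.010 with a replicate block. The inner-arm chain Dnah7b (ENSMUSG00000041144, chromosome 1, 46066315 to 46373546, plus strand) had the smallest SE of the log2 difference among the 8. It was at 249, 198, 257, 259 and 211.5 in FAP-ctrl against 149, 149 and 161 in FAP-no cilia. All 3 FAP-no cilia libraries lay below every FAP-ctrl library. The means were 235 ± 28.1 (SD, n = 5) against 153 ± 7.12 (SD, n = 3), with a log2 difference of -0.61 ± 0.14 (SE; limma-trend adjusted p = 0.190, DESeq2 adjusted p = 0.0201, edgeR adjusted p = 0.221). The male libraries alone gave -0.54, and DESeq2 with sex as a covariate gave an adjusted p of 0.610. DESeq2 kept the call of Dnah7b without FAP-ctrl 2, 3 or 5 or FAP-no cilia 3 and lost it without FAP-ctrl 1 or 4 or FAP-no cilia 1 or 2, and the adjusted p ran from 0.00929 to 0.852 over all alternatives. Dnah7a and Dnah7c, close copies of this gene, are not among the 13 Dnah genes with deposited values, of 15 annotated. How reads of the 3 copies were assigned is therefore uncertain.

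Of the other inner-arm chains, Dnah10 and Dnah2 form the arm with a pair of heads. Dnah10 was at 12.2, 8.57, 9.32, 11.3 and 8.20 in FAP-ctrl against 2.52, 1.79 and 10.5 in FAP-no cilia, where the third library lay within the FAP-ctrl range (log2 difference -1.16 ± 0.51 SE, limma-trend unadjusted p = 0.0451, adjusted p = 0.452). Dnah2, whose groups overlapped, was at 35.3 ± 16.8 (SD, n = 5) against 20.4 ± 11.8 (SD, n = 3). Dnah1, a single-headed arm chain, was at 92.0, 78.2, 45.7, 79.8 and 97.5 in FAP-ctrl and within that range in FAP-no cilia, at 70.6, 73.5 and 58.7. Dnah6, another single-headed chain, was the exception in sign, at 9.75, 25.7, 5.59, 23.4 and 13.7 in FAP-ctrl against 30.3, 19.7 and 29.8 in FAP-no cilia (log2 difference 0.89 ± 0.48 SE, limma-trend adjusted p = 0.536). Its groups overlapped through FAP-no cilia 2.

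Outer-arm dynein was represented by the heavy chains Dnah8, Dnah9 and Dnah17 and the intermediate chain Dnaic2, and the difference was below 0 for all 4 with all libraries, with a median of -0.87, but not for Dnah8 in the male libraries (0.004) or with a replicate block (0.010). Dnah9, a heavy chain of the distal outer arm in respiratory cilia, was at 24.4, 46.1, 27.9, 34.7 and 14.6 in FAP-ctrl against 17.7, 10.8 and 10.5 in FAP-no cilia. The lowest FAP-ctrl library lay inside the FAP-no cilia range, and the log2 difference was -1.07 ± 0.39 (SE; limma-trend unadjusted p = 0.0194, adjusted p = 0.370). Dnah17, an outer-arm chain of sperm tails, was at 18.3, 10.7, 25.2, 26.0 and 30.1 against 5.04, 8.96 and 15.8 (-1.12 ± 0.44 SE, limma-trend adjusted p = 0.409). Within FAP-ctrl, 1 member of 36, Dnah17, differed by sex at an unadjusted limma-trend p under 0.05, where 634 of 14768 genes did. Its male minus female difference was -0.90 (limma-trend unadjusted p = 0.0472, adjusted p = 0.992). For Dnah17 the male libraries alone gave a group difference of -0.58. Dnah8, also a sperm outer-arm chain and the most abundant of the 3 per kb, was at 117 ± 26.8 (SD, n = 5) against 111.5 ± 18.7 (SD, n = 3). Dnaic2 was at 31.7, 70.7, 29.8, 29.5 and 53.8 in FAP-ctrl against 22.7, 14.3 and 48.2 in FAP-no cilia, with overlapping groups.

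Cfap43 and Cfap44 tether the head of the arm with a pair of heads to the doublet, and Cfap100 anchors the same arm. Cfap44 was at 13.4, 10.7, 25.2, 16.5 and 19.1 in FAP-ctrl against 10.1, 0 and 8.76 in FAP-no cilia. The groups did not overlap, but the lowest FAP-ctrl and highest FAP-no cilia libraries were 0.630 apart, less than 1 read in either library. Its log2 difference was -1.86 ± 0.73 (SE; limma-trend adjusted p = 0.409, DESeq2 adjusted p = 0.398). Its partner Cfap43 was at 49.4, 32.1, 35.4, 25.2 and 22.8 against 41.6, 39.4 and 36.8 (0.30 ± 0.28 SE). Cfap100 was at 16.5 ± 4.91 against 8.94 ± 4.88 (SD), and the groups of both genes overlapped.

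Among the doublet proteins, Saxo2 (ENSMUSG00000038570, chromosome 7, 82632960 to 82648528, minus strand), a microtubule-stabilizing protein, was at 46.9, 64.3, 56.8, 65.1 and 67.4 in FAP-ctrl against 30.3, 30.5 and 24.5 in FAP-no cilia. No FAP-no cilia library reached the lowest FAP-ctrl library. The means were 60.1 ± 8.37 (SD, n = 5) against 28.4 ± 3.38 (SD, n = 3), with a log2 difference of -1.05 ± 0.22 (SE; limma-trend adjusted p = 0.17, DESeq2 adjusted p = 0.0199, edgeR adjusted p = 0.213). The male libraries alone gave -0.93, and DESeq2 with sex as a covariate gave an adjusted p of 0.563. DESeq2 kept the call of Saxo2 without FAP-ctrl 1 or 3 and lost it without any other library, and the adjusted p ran from 0.0199 to 0.820 over all alternatives. Cfap20 was at 887, 896, 903, 948 and 852 in FAP-ctrl against 994, 1029 and 953 in FAP-no cilia. These groups were close and did not overlap, at a log2 difference of 0.14 ± 0.07 (SE, limma-trend adjusted p = 0.519). Tekt2 was at 65.2, 45.01, 38.2, 41.7 and 62.0 in FAP-ctrl and at 54.2, 44.8 and 42.9 in FAP-no cilia, inside that range. Its interval of the difference ran from -0.61 to 0.48 (95%). Cfap45, Cfap53 and Cfap126, which lie inside the doublets, overlapped between groups with differences of -0.74, 0.26 and -0.72. Cfap126, near the level threshold, was at 9.14, 6.43, 9.32, 13.9 and 10.9 against 12.6, 1.79 and 6.13.

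Of the 5 assembly factors, 4 had narrow intervals around 0. Dnaaf2 was at 257, 286, 305, 241 and 255 in FAP-ctrl against 252, 244 and 254 in FAP-no cilia, with a 95% interval of the log2 difference from -0.36 to 0.16. Dnaaf5 was at 254, 250, 249, 281 and 245 against 300.2, 303 and 244, with an interval from -0.13 to 0.40. The intervals of Cfap298 and Cfap300 ran from -0.30 to 0.26 and from -0.29 to 0.23. Cfap300 was at 539, 468, 577, 578 and 525 in FAP-ctrl against 578, 444 and 560 in FAP-no cilia. Each of these 4 intervals excludes a change of the size seen in Dnah7b, Saxo2 or Cfap74. Dnaaf2 shares 22.3% of its exon bases with Gm49383 on the same strand and Cfap298 44.2% with Gm49727 on the opposite strand, neither in the files, so their reads may not all be their own. Dnaaf3 was lower in abundance and less precise, at 17.0 ± 2.70 (SD, n = 5) against 11.7 ± 4.60 (SD, n = 3).

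Radial spoke genes were split, with 4 above 0 and 2 below 0 and a median of 0.08, and the sign of Rsph9 turned in the male libraries (-0.18). Rsph1, of the spoke head, was at 60.3, 13.9, 24.2, 35.6 and 72.0 in FAP-ctrl, and its 47.9, 35.8 and 62.2 in FAP-no cilia lay within that spread. Rsph9, also of the head, was at 29.3, 34.3, 17.7, 13.9 and 32.8 against 32.8, 26.9 and 24.5. The stalk genes Rsph3a and Rsph3b are near copies of each other, so their split of reads is uncertain, and both overlapped between groups. Rsph3b was at 11.6, 9.64, 7.45, 11.3 and 10.9 against 17.7, 7.17 and 9.63. Rsph10b, which shares 85 bases of exon with Pms2 on the same strand, was at 9.14, 27.9, 17.7, 13.9 and 24.6 against 1.26, 12.5 and 18.4 (log2 difference -1.13 ± 0.67 SE). Cfap61, of the calmodulin and spoke-associated complex, overlapped between groups with a difference of -0.72 ± 0.49 (SE). Drc3 was at 43.9, 41.8, 51.2, 59.0 and 55.6 against 46.7, 41.2 and 41.2, with overlapping groups.

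The members without a fixed place in the axoneme included the abundant Cfap36, at 875, 872, 965, 916 and 875 in FAP-ctrl against 1027, 806.5 and 905 in FAP-no cilia. Its FAP-no cilia values lay on both sides of the FAP-ctrl range. Cfap97 was at 579 ± 65.4 against 622 ± 126 (SD). Cfap157, a basal-body protein of sperm, was at 19.5, 37.5, 30.7, 40.8 and 31.0 in FAP-ctrl against 12.6, 28.7 and 11.4 in FAP-no cilia. FAP-no cilia 2 lay within the FAP-ctrl range, and the log2 difference was -0.90 ± 0.37 (SE; limma-trend unadjusted p = 0.0340, adjusted p = 0.425).

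In the male libraries alone, 23 members were below 0 and 13 above, with a median of -0.22, and 0 were called by limma-trend. Dnah2, Cfap61 and Cfap126 were then at -0.33, -0.46 and -0.42, and Rsph1 at 0.68. The sign turned for Cfap43 (-0.02), Rsph9 (-0.18), Cfap53 (-0.20), Cfap300 (0.06), Cfap298 (0.11), and for Drc3 and Dnah8 (0.004 each). The other small differences kept their sign, at -0.33 for Dnah1, -0.20 for Tekt2, 0.25 for Cfap97, 0.20 for Rsph3a, 0.02 for Rsph3b and 0.06 for Cfap36.

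**Figure D4:**
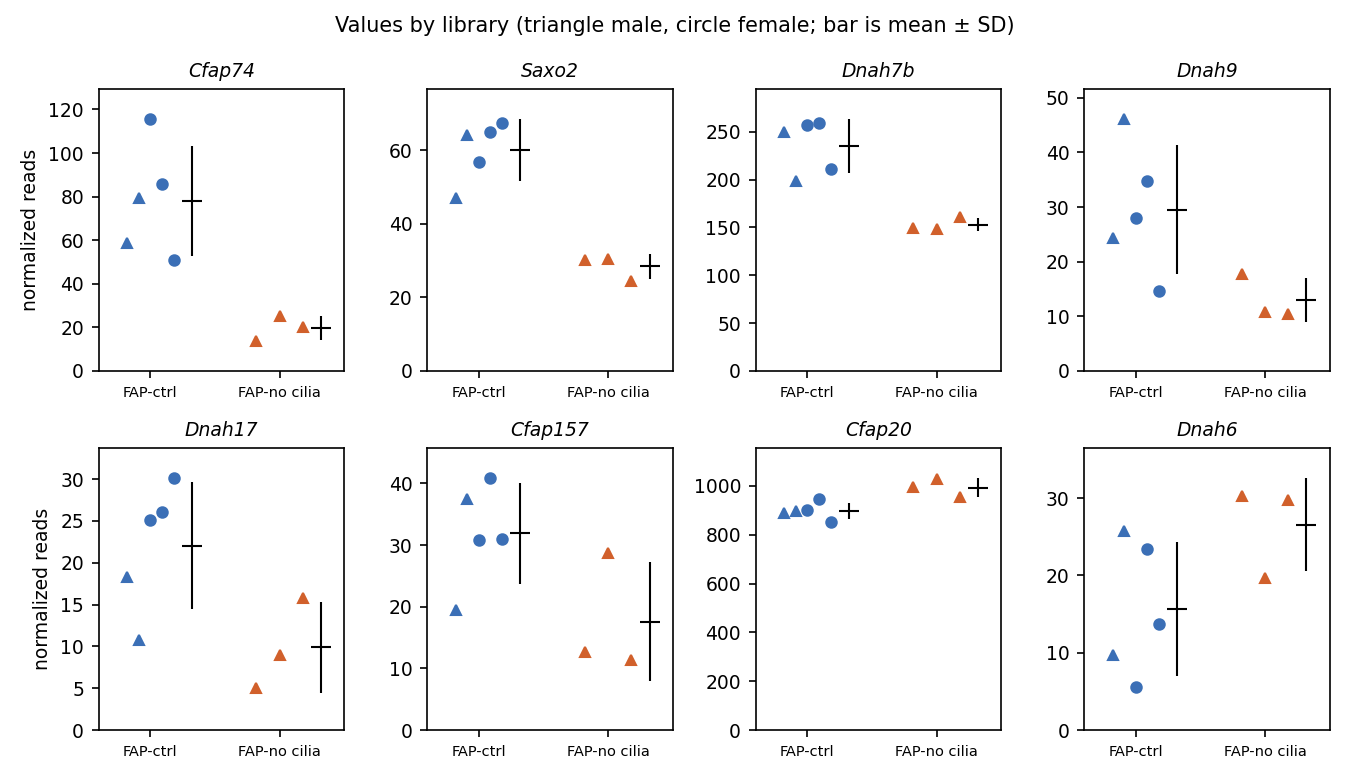
Normalized read counts (linear axes from 0) of 8 members, 1 point per library with the mean and SD of each group (FAP-ctrl n = 5, FAP-no cilia n = 3) and with male libraries as triangles and female ones as circles. Cfap74, Saxo2 and Dnah7b show no overlap between groups, with every FAP-no cilia point below every FAP-ctrl point.

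The regulators of motile ciliogenesis were split between genes with reads and genes almost without. Foxj1 stood at 23.7 ± 5.22 (SD, n = 5) in FAP-ctrl against 23.9 ± 7.55 (SD, n = 3) in FAP-no cilia. Mcidas and Gmnc, the upstream inducers of multiciliated cells, were at or below 1.82 in every library. Rfx2 stood at 337 ± 54.8 against 331 ± 114 (SD) and Ccno, which acts in centriole amplification, at 115 ± 21.4 against 109 ± 27.8 (SD). Rfx3 was at 361, 368, 588, 541.5 and 595 in FAP-ctrl against 333, 240.2 and 458 in FAP-no cilia (log2 difference -0.53 ± 0.24 SE, limma-trend adjusted p = 0.464). For Rfx3 the male libraries by themselves gave -0.13. Stk36, a kinase needed for the central pair, was at 175 ± 28.0 (SD, n = 5) against 128 ± 17.0 (SD, n = 3), without overlap between groups (-0.44 ± 0.17 SE, limma-trend adjusted p = 0.403). Of the 23 listed regulators 13 could be tested, 5 above 0 and 8 below, with a median of -0.02, and limma-trend and DESeq2 called 0 of them, with 1 lower (background 6.09%) and 1 higher (background 4.68%) at an unadjusted limma-trend p under 0.05.

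Axonemal and assembly genes outside the prefixes were also mostly below 0. Of 65 listed, 36 could be tested, 28 below 0 and 8 above, with a median of -0.21, where 48.5% of all genes lay below 0. Limma-trend called 0 (background 0.00677%), with 5 lower (background 6.09%) and 0 higher (background 4.68%) at an unadjusted p under 0.05. DESeq2 called 1, Tppp3 (background 1.06%). Tppp3, a tubulin polymerization-promoting protein, was at 472, 490, 324, 250 and 692 in FAP-ctrl against 209, 217 and 199 in FAP-no cilia (log2 difference -1.01 ± 0.28 SE, DESeq2 adjusted p = 0.0174, or 0.129 with sex as a covariate). FAP-ctrl varied widely and still did not overlap with FAP-no cilia. Ccdc114, of the outer-arm docking complex, was at 88.4, 86.8, 107, 133 and 129 against 46.7, 68.1 and 69.2, also without overlap (-0.82 ± 0.22 SE, limma-trend adjusted p = 0.238, DESeq2 adjusted p = 0.0689). The 3 highest FAP-ctrl values of Ccdc114 are those of the female libraries, the male libraries gave -0.53, and DESeq2 with sex as a covariate gave an adjusted p of 0.952. Lrrc23, a radial spoke protein, stood at 24.7 ± 8.18 (SD, n = 5) against 9.86 ± 5.97 (SD, n = 3) without overlap. Wdr66 was at 525 ± 33.8 against 420 ± 69.8 (SD), with overlapping groups.

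The 16 tested dynein light chain and cytoplasmic dynein genes had 7 differences above 0 and 9 below, with a median of -0.03 and single genes from -0.59 (Dynlt1c) to 0.49 (Dynlt1a), both named after their values were seen. Dynlrb1, a light chain of cytoplasmic and ciliary dyneins, stood at 1933 ± 118 (SD, n = 5) against 2186 ± 36.3 (SD, n = 3). Of the 19 R2TP and HSP90 co-chaperone genes, which help fold dyneins and other complexes, 17 were above 0 and 2 below, with a median of 0.11. Stip1, an HSP90 co-chaperone, was the member of that list with the smallest p, at 4769 ± 465.5 (SD, n = 5) against 5880 ± 540.5 (SD, n = 3) (limma-trend adjusted p = 0.323). Limma-trend, edgeR and DESeq2 called 0 genes in both lists, and 2 genes, Dynlrb1 and Stip1, were higher at an unadjusted limma-trend p under 0.05 (background 4.68%).

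Markers of cells that carry motile axonemes were mostly below 10 in every library, with exceptions in both lists. Of 9 multiciliated epithelium markers 6 were below 10 in every library, with Sntn at 0 in all 8. Foxj1 (17.7 to 32.4) and Ccno (79.7 to 139.6) were above 10 in all 8. The summed level of 3726 to 4611 in FAP-ctrl against 4470 to 5260 in FAP-no cilia was nearly all the tubulin gene Tubb4b. Of 6 male germ cell markers 4 were below 10 in every library, with Prm2 and Tnp1 at 0 in all 8. Ddx4 was above 10 in FAP-ctrl 1 (10.4), FAP-ctrl 3 (28.0) and FAP-no cilia 2 (10.8), and Sycp3 in FAP-no cilia 1 (12.6). The summed level of the 6 was 5.36 to 41.9 in FAP-ctrl against 10.8 to 18.9 in FAP-no cilia. Muscle fibre markers, of which 3 of 6 were below 10 in every library, summed to 100.7 to 168 in FAP-ctrl against 27.7 to 100.7 in FAP-no cilia. Tenocyte markers summed to 1465 to 2855 and 3190 to 3935, and macrophage markers to 535 to 1996 and 1099 to 3427. Apart from muscle fibre and tenocyte, the sums of all marker lists overlapped between the groups. The muscle fibre sums barely separated, with the lowest FAP-ctrl library at 100.732 and the highest FAP-no cilia library at 100.705. The erythroid sums (6.38 to 253.4 in FAP-ctrl, 11.4 to 69.9 in FAP-no cilia) overlapped only through FAP-ctrl 5, at 6.38. The muscle fibre sum was lower in FAP-no cilia, as Cfap74, Saxo2 and Dnah7b were, and the tenocyte sum was higher. Their part in those results was not tested.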

How the data were processed

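Total RNA of 5 FAP-ctrl and 3 FAP-no cilia libraries was sequenced from stranded libraries as single reads of 50 bases, per the labels. The authors aligned reads to GRCm38 with STAR and divided counts per gene by DESeq size factors, per the series design text. The counting tool, strand setting and annotation release were not stated in any source used here. The deposited signal was a whole multiple of 1 read for 100% of values (tolerance 0.01), which gave the reads back. Gene symbols, exons and coordinates came from GENCODE M21 (GRCm38), which matched 32938 of 37991 identifiers, and promoters from RefSeq (GRCm38.p6).

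The members, gene lists and roles were chosen with earlier results of these data known. Genes at 10 or more in at least 3 libraries (14768) were compared by limma-trend (limma 3.58.1) on log2(value + 1), with group as the only term. Benjamini-Hochberg adjustment ran over all genes, with a threshold of 0.05. On this scale, changes of low genes can come out smaller or larger than in DESeq2. Dnah9 was at -1.07 against -1.18 in DESeq2, but Cfap44 at -1.86 against -1.32 and Dnah10 at -1.16 against -0.87. Intervals are at 95%. Levels per kb are normalized reads divided by the merged exon length. Alternatives were edgeR 4.0.16 (quasi-likelihood, TMM), DESeq2 1.42.0 on the recovered reads, voom quality weights, other pseudocounts and filters, libraries left out and the replicate number as a block. Fits with sex, male libraries only and DESeq2 with libraries left out were added after the data were seen. Values per library are given for the 2 most abundant per kb of each subfamily, the 6 smallest p in each direction, any member called by a tool and the neighbours of the threshold. Of the other lists, up to 4 genes with the smallest p, those called by a tool and 6 regulators could be named. The fits were tested on simulated data with Python 3.11.15 and R 4.3.3.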

Additional observations from a re-analysis of the deposited data

Results flagged for a closer look

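Dnaaf5 stood apart in 1 library, FAP-ctrl 4, where its normalized read count was 281.2, while the other 4 FAP-ctrl libraries lay between 245.2 and 254.2. The gap to the nearest library was 0.750 of the range of the group, above the 95% critical value of 0.71 for 5 samples. Chance alone flags about 1 in 20 groups, and the FAP-ctrl groups of all 36 members and Ift88 were examined.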

How the results depend on the processing

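Over the alternatives, 0 of 36 members were called by limma-trend or edgeR in any setting. DESeq2 called 3, where it called 177 of 16767 genes, and 1 with sex as a covariate, where it called 27 of 13983. With libraries left out, the number of members called ran from 0 (limma-trend) to 3 (DESeq2). The number of all genes called moved as well. In DESeq2 it ran from 49 of 14847 (without FAP-no cilia 1) to 347 of 15249 (without FAP-no cilia 3). In limma-trend it ran from 1 to 3 of 14768. DESeq2 called Cfap74 without each of the 8 libraries in turn, Dnah7b without FAP-ctrl 2, 3 or 5 or FAP-no cilia 3, and Saxo2 without FAP-ctrl 1 or 3. Members lower at an unadjusted p under 0.05 were 8 in limma-trend (background 6.09%). They numbered 2 with a mean of at least 50, 5 with a replicate block, and 4 to 11 with a library left out. They numbered 4 each with sex as a covariate, in male libraries only and in DESeq2 with sex. The share of all genes was not counted in these other settings, so the counts cannot be set against it. Libraries of the same replicate number had correlations of the deviations of -0.070, 0.135 and 0.036 over numbers 1 to 3. Libraries of different numbers had -0.258 to 0.134. So few values cannot decide whether the numbers pair the libraries. Outside the members, DESeq2 called 1 gene of the lists other than markers, Tppp3 (background 1.06%). With a library left out, 0 to 2 genes of these lists were called. The lists hold 13 tested regulators, 36 other axonemal and assembly genes, 16 dynein light chain and cytoplasmic dynein genes and 19 co-chaperones. They therefore reach beyond the motile programme. The log2 difference of Ift88 was -1.104 in DESeq2, -0.929 with sex in DESeq2, and -1.372 to -0.975 with a library left out. With the longest transcript as length, the Dnaaf median was 48.6% and Drc3 12.3% of the coding median, against 66.0% and 9.19% with merged exons. The planned sex covariate required both sexes in both groups, which did not hold, so it was run as an added setting.

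The sign of the difference turned in 10 genes near 0 when a library was left out, with ranges of -0.078 to 0.021 for Cfap298, -0.103 to 0.085 for Cfap300, -0.075 to 0.099 for Cfap36, -0.231 to 0.775 for Cfap53, -0.047 to 0.25 for Cfap97, -0.21 to 0.069 for Dnah8, -0.08 to 0.166 for Rsph3a, -0.248 to 0.389 for Rsph3b, -0.025 to 0.321 for Rsph9 and -0.212 to 0.035 for Tekt2. With the replicate block it turned for Dnah8 (0.010) and Cfap298 (0.040). With sex as a covariate, and with the same values in male libraries only, it turned for Cfap43 (-0.023), Drc3 (0.004), Rsph9 (-0.179), Cfap53 (-0.196), Cfap300 (0.060), Dnah8 (0.004) and Cfap298 (0.107). DESeq2 with sex gave -0.074, 0.003, -0.177, -0.047, 0.069, 0.004 and 0.099 for the same 7 genes. The cause was not tested. Depth limits the members under a mean of 50: 1 read was worth up to 1.79, and a threshold of 5 or 20 in place of 10 gives 41 or 26 members.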
